A study of Mus musculus with 8 samples.

Results

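The genes that copy DNA and supply its nucleotides were followed in mouse bone marrow monocytes and in their proliferating precursors. The list holds 44 genes of the replication fork, of origin licensing, of deoxynucleotide supply and of chromatin assembly behind the fork. They were chosen by name and function, with earlier results of these data already known. All 44 were among the 13388 genes measured, and all 44 passed the filter of at least 1 CPM (reads scaled to library size) in at least 2 libraries. RNA sequencing was done on 8 libraries from wild-type mice, 2 in each of 4 groups: Ly6C+ classical monocytes on OP9, the same monocytes on OP9-DLL1, common monocyte progenitors (cMoPs) on OP9, and cMoPs on OP9-DLL1. OP9 is a mouse bone marrow stromal line, and OP9-DLL1 is that line displaying the Notch ligand DLL1. All cells were sorted from bone marrow and spent 6 h on the stroma, so no group was measured without stroma. The labels do not state the age or sex of the mice or whether mice were pooled, and no genetic change was made in the monocytes or cMoPs.

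Before S phase, the origin recognition complex with Cdc6 and Cdt1 loads the MCM2-7 helicase onto DNA, which licenses each origin. Cdc45, GINS and Mcm10 then turn the loaded helicase into a moving one, and the primase, the polymerases and the sliding clamp Pcna follow it. Ribonucleotide reductase, thymidylate synthase and thymidine kinase supply the deoxynucleotides. Many of these genes are transcribed in late G1 and S phase, with E2F factors among their known regulators. In bone marrow, cMoPs divide and give rise to the Ly6C+ monocytes. The share of cycling cells among the monocytes used here was not measured.

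Each library held 47316323 to 62459962 reads, recovered from the deposited values, so 1 read was worth 0.0151 to 0.0231 CPM. The fewest reads behind a member value were 29, for Orc1 in replicate 1 of the monocytes on OP9. Cell identity markers followed the labels in all 8 libraries. Summed over the 9 measured of 10 progenitor markers, the level was 14800 to 22100 CPM in cMoPs and 329 to 494 CPM in monocytes. Mpo, a granule enzyme of progenitors, lay at 3590 to 5280 CPM in cMoPs and 4.56 to 20.3 CPM in monocytes. The 10 classical monocyte markers summed to 7000 to 8390 CPM in cMoPs and 30000 to 48200 CPM in monocytes. Ly6c2 was itself higher in cMoPs, at 2060 to 2310 CPM against 872 to 1200 CPM. Stromal RNA was low: 7 of 18 stromal markers were measured and together gave 0.673 to 3.03 CPM in cMoPs and 4.94 to 29.4 CPM in monocytes.

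To show the DNA in front of members that moved together, promoter stretches with E2F-type letters were read from RefSeq (GRCm38.p6). Mcm6 has the largest difference between the cell types within the helicase, Mcm5 is a helicase subunit with overlapping matches, and Pola1 is the catalytic subunit of polymerase alpha with a single match. Each stretch is the 250 bases before the start site, 5′ to 3′ on the strand of the gene, with capitals marking the matches. The Mcm6 stretch is chr1:128359706-128359955 on the minus strand, the Mcm5 stretch is chr8:75109259-75109508 on the plus strand, and the Pola1 stretch is chrX:93632156-93632405 on the minus strand.
Mcm6: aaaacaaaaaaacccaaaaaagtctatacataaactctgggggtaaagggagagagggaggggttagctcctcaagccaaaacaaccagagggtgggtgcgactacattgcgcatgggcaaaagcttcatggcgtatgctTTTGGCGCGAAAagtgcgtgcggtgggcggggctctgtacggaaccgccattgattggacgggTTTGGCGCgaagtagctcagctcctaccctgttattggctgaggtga
Mcm5: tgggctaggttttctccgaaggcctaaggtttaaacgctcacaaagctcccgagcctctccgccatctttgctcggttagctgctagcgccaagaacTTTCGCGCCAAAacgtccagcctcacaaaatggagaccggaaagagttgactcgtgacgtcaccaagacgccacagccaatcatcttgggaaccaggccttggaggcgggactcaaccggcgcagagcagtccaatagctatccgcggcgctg
Pola1: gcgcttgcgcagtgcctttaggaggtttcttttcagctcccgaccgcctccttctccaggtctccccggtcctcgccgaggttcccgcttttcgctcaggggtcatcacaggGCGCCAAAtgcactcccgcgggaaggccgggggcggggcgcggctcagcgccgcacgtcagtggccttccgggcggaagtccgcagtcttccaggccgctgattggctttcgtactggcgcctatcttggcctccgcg

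In Mcm6 the matches begin 110, 106 and 47 bases before the start, and the first of these overlaps its neighbour on the other strand. In Mcm5 the matches begin 153 and 149 bases before the start and overlap as well. The single match of Pola1 begins 138 bases before it. The letters searched were TTTCCCGC, TTTCGCGC, TTTGCCGC and TTTGGCGC on both strands, in windows from 250 bases before to 50 bases after each start. RefSeq entries were found for 37 of the 44 members, with 42 windows in all. Gins1, Gins2, Gins4, Mcm4, Pole, Prim2 and Rfc2 had none. A match stood in 14 of the 42 member windows (33.3%) and in 744 of all 32851 windows (2.26%). The 14 members with a match were Mcm3, Mcm5, Mcm6 and Mcm7 of the helicase, the licensing genes Orc1, Cdc6 and Cdt1, the GINS subunit Gins3, the polymerase genes Pola1, Pold1, Pold3 and Pole2, the clamp loader subunit Rfc3 and the ligase gene Lig1. The CCAAT box, searched as CCAAT on both strands, stood in 24 of 42 member windows (57.1%) and in 37.4% of all windows. The letters TTTGAA, known from the cell cycle homology region, stood in 5 of 42 (11.9%) and in 17.9% of all windows. These are matches of letters, and no binding was measured.

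The first comparison asked how the progenitors differ from the monocytes on the same stroma. All 44 members were higher in cMoPs on OP9 by limma's moderated test (adjusted p from 6e-07 to 0.00047), where 28.8% of all genes tested were higher and 27.7% lower. On OP9-DLL1 all 44 were again higher (adjusted p from 3.4e-07 to 0.00082), beside 28.2% of all genes higher and 29.2% lower. For every member and on both stromas, both cMoP libraries lay above both monocyte libraries, as they did for 39.9% of all genes on OP9 and 41.1% on OP9-DLL1. The median log2 fold change of the members was 2.51 on OP9, from 0.84 to 5.48, and the median over all genes was 0.01. It was 2.69 on OP9-DLL1, from 0.76 to 5.02, and -0.01 over all genes. Differences of at least 4-fold were seen in 34 of 44 members on OP9, beside 5.93% of all genes, and in 35 of 44 on OP9-DLL1, beside 6.23%. At least 8-fold were 12 members on OP9, beside 2.37% of all genes, and 11 on OP9-DLL1, beside 2.39%. In bulk RNA, a smaller share of cycling cells and less RNA of these genes per cell cannot be told apart.

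**Figure D1:**
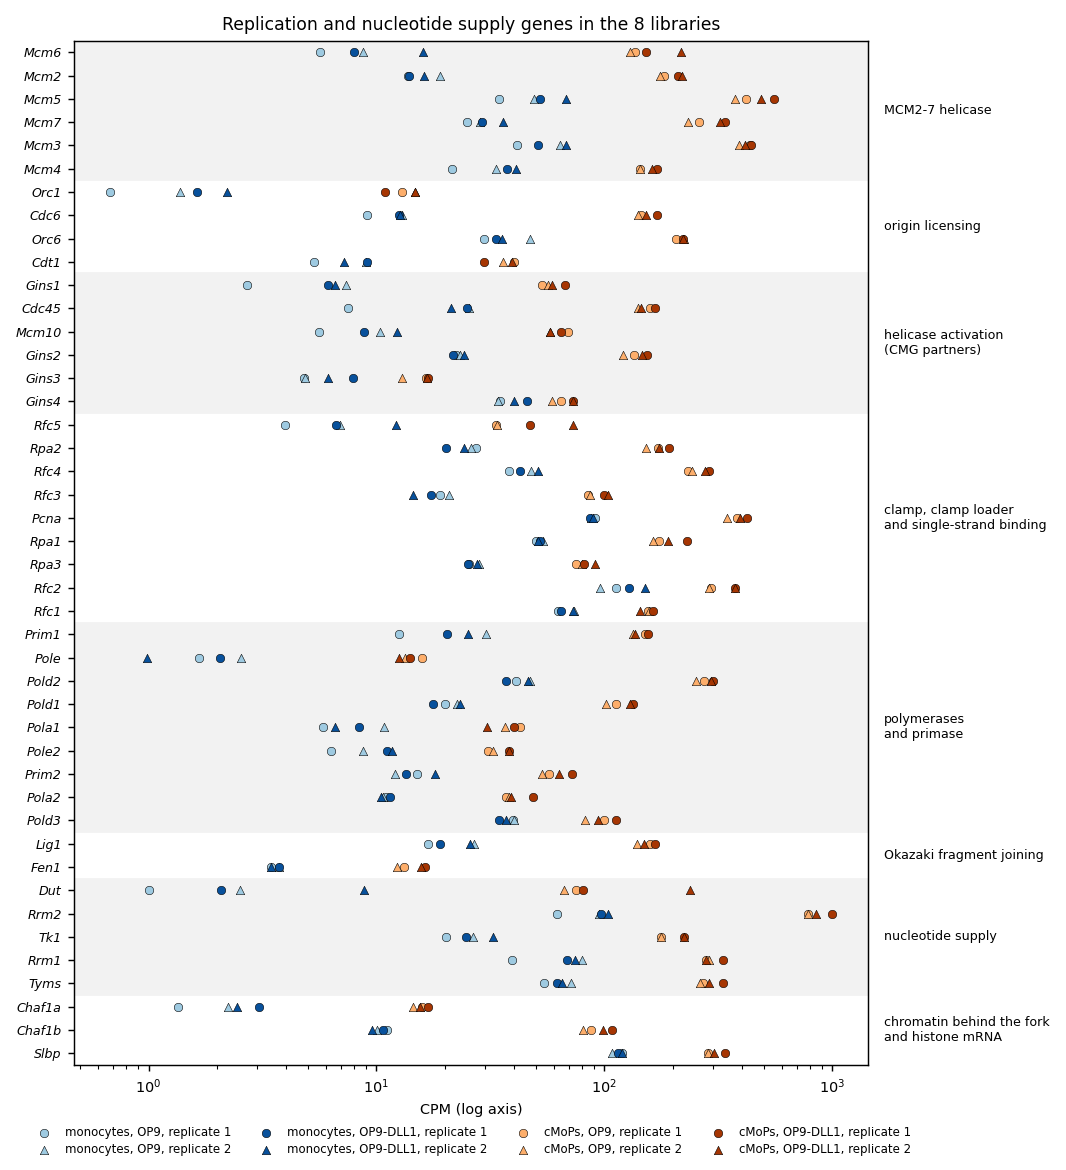
Level of each of the 44 genes in the 8 libraries, in CPM on a log axis, with 1 symbol per library and genes grouped by role. In every row the 4 cMoP libraries (orange and brown) lie to the right of the 4 monocyte libraries (blue), and Dut, Mcm6 and Rfc5 are the rows in which replicate 2 on OP9-DLL1 stands off in both cell types.

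The subunits of the MCM2-7 helicase, the ring that unwinds DNA at the fork, were all higher in cMoPs, with a median log2 fold change of 3.24 on OP9. Mcm2 (ENSMUSG00000002870, chr6:88883474-88898780, minus strand) was at 13.8 and 19.1 CPM in monocytes on OP9 and at 13.9 and 16.2 CPM on OP9-DLL1. In cMoPs it was at 183 and 176 CPM on OP9 and at 210 and 219 CPM on OP9-DLL1. The groups of the 2 cell types were thus far apart, and the log2 fold change was 3.47 ± 0.16 (SE) on OP9 (adjusted p = 7.9e-07) and 3.83 on OP9-DLL1. Mcm6, the subunit with the largest difference, was at 5.67 and 8.71 CPM in monocytes on OP9, at 7.97 and 16 CPM on OP9-DLL1, at 136 and 130 CPM in cMoPs on OP9 and at 152 and 216 CPM on OP9-DLL1. Its log2 fold change on OP9 was 4.24 ± 0.32 (adjusted p = 8.4e-06). Replicate 2 on OP9-DLL1 was the highest library of Mcm6 in each cell type. Mcm4, the subunit with the smallest difference, was at 21.5 and 33.5 CPM in monocytes on OP9, at 37.3 and 40.9 CPM on OP9-DLL1, at 143 and 143 CPM in cMoPs on OP9, and at 171 and 162 CPM on OP9-DLL1. Its log2 fold change on OP9 was 2.42 ± 0.19 (adjusted p = 9.5e-06). Mcm3, Mcm5 and Mcm7 lay between, at 3, 3.27 and 3.21 on the log2 scale on OP9.

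The subunits of this ring are present in equal number in the protein, and their RNA levels per length were compared. Per kb of exon, Mcm3 was the most abundant in monocytes on OP9, at 14.1 CPM per kb, and Mcm6 the least, at 1.54, a ratio of 9.16. In cMoPs on OP9 Mcm3 was again the most abundant, at 110.0 CPM per kb, and Mcm2 the least, at 25.8, a ratio of 4.26. On OP9-DLL1 the ratio was 7.36 in monocytes and 4.22 in cMoPs. The subunits thus had less unequal levels in cMoPs, with Mcm6 and Mcm2, the low ones, showing the largest fold changes. Exon length was taken over all annotated transcripts of a gene, so a gene with many unused exons is given too low a level per kb.

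Origin licensing genes had a median log2 fold change of 3.12 on OP9, with all 4 higher. Cdc6, the loader of the helicase, was at 9.09 and 12.9 CPM in monocytes on OP9, at 12.6 and 12.7 CPM on OP9-DLL1, at 145 and 140 CPM in cMoPs on OP9, and at 171 and 153 CPM on OP9-DLL1. Its log2 fold change was 3.72 ± 0.17 on OP9 (adjusted p = 7e-07) and 3.68 on OP9-DLL1. Cdt1, which brings the helicase to the origin and is destroyed in S phase as a protein, was at 5.34 and 9.01 CPM in monocytes on OP9 and at 9.12 and 7.17 CPM on OP9-DLL1. In cMoPs Cdt1 was at 40.1 and 35.9 CPM on OP9 and at 29.5 and 39.2 CPM on OP9-DLL1. The log2 fold change of Cdt1, 2.45 ± 0.26 on OP9 (adjusted p = 5.9e-05), was the smallest of the 4. Orc1, the subunit of the origin recognition complex that comes and goes with the cell cycle, was at 0.681 and 1.37 CPM in monocytes on OP9, 1.63 and 2.22 on OP9-DLL1, 12.9 and 14.8 in cMoPs on OP9, and 10.9 and 14.7 on OP9-DLL1. It had the largest log2 fold change of the group, 3.84 ± 0.35 on OP9 (adjusted p = 2.5e-05) and 2.73 on OP9-DLL1. Both monocyte libraries of Orc1 on OP9-DLL1 lay above both on OP9, and the cMoP libraries overlapped between the stromas. Orc6, another subunit of the complex, lay at 2.52 on OP9.

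Helicase activation genes were all 6 higher and ranged from 0.84 to 3.63 on the log2 scale on OP9. Gins1 and Gins4 are subunits of the same complex, GINS, which joins Cdc45 and the MCM ring in the active helicase. Gins1 was at 2.71 and 7.32 CPM in monocytes on OP9, 6.15 and 6.57 on OP9-DLL1, 53.5 and 56.6 in cMoPs on OP9, and 67.3 and 58.7 on OP9-DLL1. Gins4 was at 34.7 and 34.1 CPM in monocytes on OP9, 45.9 and 40.2 on OP9-DLL1, 64.7 and 58.9 in cMoPs on OP9, and 72.7 and 72.7 on OP9-DLL1. The log2 fold change on OP9 was 3.63 ± 0.37 for Gins1 (adjusted p = 4.2e-05) and 0.84 ± 0.13 for Gins4 (adjusted p = 0.00047), the smallest of all 44 members. Per kb of exon, Gins4 was the most abundant GINS subunit and Gins3 the least in all 4 groups. The ratio of these 2 was 14.3 in monocytes and 8.4 in cMoPs on OP9. The place of Gins2 in this order, and so the top rank of Gins4, is uncertain. Of its exon bases, 67.3% are shared with another annotated gene. Cdc45 was at 7.52 CPM in replicate 1 and 25.6 CPM in replicate 2 of the monocytes on OP9, the widest gap of any member in that group, and at 159 and 141 CPM in cMoPs on OP9. Its log2 fold change on OP9 was 3.43 ± 0.43 (adjusted p = 0.00017). Mcm10, which helps the helicase start to move, lay at 3.06 ± 0.28 (adjusted p = 2.4e-05).

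Genes of the clamp, the clamp loader and the single-strand binding protein had the lowest median of the role groups, 2.03 on OP9 and 2.22 on OP9-DLL1, with 9 of 9 higher. Pcna, the sliding clamp that holds polymerases on DNA, was at 90.7 and 87.1 CPM in monocytes on OP9, at 86.1 and 88.8 CPM on OP9-DLL1, at 383 and 345 CPM in cMoPs on OP9, and at 424 and 392 CPM on OP9-DLL1. The monocyte libraries lay within a narrow band, and the log2 fold change was 2.03 ± 0.11 on OP9 (adjusted p = 1.4e-06). Per kb of exon, Pcna had the highest mean level of all members in monocytes, 37.0 CPM per kb on OP9, followed by Rrm2 at 28.2. Replication factor C opens the clamp and puts it on DNA. Its subunit Rfc5 was at 3.96 and 6.95 CPM in monocytes on OP9, 6.62 and 12.2 on OP9-DLL1, 33.4 and 33.7 in cMoPs on OP9, and 47.1 and 72.6 on OP9-DLL1, with a log2 fold change of 2.68 ± 0.34 on OP9 (adjusted p = 0.00018). The large subunit Rfc1 was at 62.6 and 73.9 CPM in monocytes on OP9, 64.8 and 72.5 on OP9-DLL1, 156 and 157 in cMoPs on OP9, and 163 and 144 on OP9-DLL1, with 1.21 ± 0.13 (adjusted p = 6.6e-05). Per kb of exon, Rfc4 was the most abundant subunit and Rfc5 the least in each group, with ratios from 14.4 to 23.9. Of the RPA subunits, which coat single-stranded DNA, Rpa2 had the largest log2 fold change on OP9, 2.6 ± 0.14 (adjusted p = 1.3e-06), and Rpa1 was at 1.69 ± 0.13 (adjusted p = 7.9e-06).

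All 9 polymerase and primase genes were higher, with a median log2 fold change of 2.32 on OP9. Prim1, the catalytic subunit of primase, which lays down the RNA primer, was at 12.5 and 30.1 CPM in monocytes on OP9, 20.5 and 25.1 on OP9-DLL1, 151 and 134 in cMoPs on OP9, and 156 and 136 on OP9-DLL1. Its log2 fold change was 2.88 ± 0.33 on OP9 (adjusted p = 9e-05), the largest of the group. Pold3, an accessory subunit of polymerase delta, had the smallest, 1.18 ± 0.14 (adjusted p = 0.00013), with 39.7 and 40.3 CPM in monocytes on OP9, 34.6 and 36.9 on OP9-DLL1, 99.7 and 82.5 in cMoPs on OP9, and 112 and 93.8 on OP9-DLL1. Pola1, whose promoter stretch is shown above, lay near the middle at 2.32 ± 0.28 (adjusted p = 0.00014). Pole, the catalytic subunit of the leading strand polymerase epsilon, was at 0.98 to 2.54 CPM in monocytes and 12.6 to 15.8 CPM in cMoPs, the lowest member per kb of exon in all 8 libraries. Behind the polymerases, Fen1 trims the flaps of Okazaki fragments and Lig1 seals them. Lig1 was at 16.8 and 26.8 CPM in monocytes on OP9, 19.1 and 25.8 on OP9-DLL1, 158 and 139 in cMoPs on OP9, and 167 and 149 on OP9-DLL1, with a log2 fold change of 2.81 ± 0.22 on OP9. Fen1 was at 3.45 and 3.73 CPM in monocytes on OP9, 3.75 and 3.43 on OP9-DLL1, 13.2 and 12.3 in cMoPs on OP9, and 16.3 and 15.7 on OP9-DLL1, with 1.83 ± 0.19.

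Nucleotide supply genes had a median log2 fold change of 2.93 on OP9, with all 5 higher. Rrm2, the small subunit of ribonucleotide reductase, which is made for S phase, was at 62 and 94.4 CPM in monocytes on OP9 and at 96.7 and 104 CPM on OP9-DLL1. In cMoPs Rrm2 was at 781 and 781 CPM on OP9 and at 999 and 852 CPM on OP9-DLL1. Per kb of exon it had the highest level of all members in each cMoP library, with means of 282.0 CPM per kb on OP9 and 334.0 on OP9-DLL1. The log2 fold change was 3.35 ± 0.18 on OP9, against 2.34 ± 0.27 for Rrm1, the large subunit of the same enzyme. Dut, which removes dUTP before it can enter DNA, was at 1 and 2.52 CPM in monocytes on OP9, at 2.08 and 8.78 CPM on OP9-DLL1, at 75.4 and 66.7 CPM in cMoPs on OP9, and at 80.8 and 237 CPM on OP9-DLL1. It had the largest log2 fold change of all members, 5.48 ± 0.70 on OP9 (adjusted p = 0.00017), and also the widest spread. Replicate 2 on OP9-DLL1 was the highest Dut library in each cell type, as it was for Mcm6 and Rfc5. Tyms, thymidylate synthase, was at 54.4 and 71.3 CPM in monocytes on OP9, 61.9 and 65.5 on OP9-DLL1, 271 and 262 in cMoPs on OP9, and 332 and 287 on OP9-DLL1, with a log2 fold change of 2.1 ± 0.15 on OP9, the smallest in the group. Tk1, the thymidine kinase of the salvage route, lay at 2.93 ± 0.17 (adjusted p = 1.9e-06).

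Among the genes of chromatin behind the fork, Chaf1a and Chaf1b encode subunits of the assembly factor that places histones on new DNA, and Slbp binds the stem-loop of replication-dependent histone mRNAs. Chaf1a was at 1.35 and 2.24 CPM in monocytes on OP9, 3.05 and 2.44 on OP9-DLL1, 15.9 and 14.4 in cMoPs on OP9, and 16.9 and 15.5 on OP9-DLL1. Slbp was at 119 and 108 CPM in monocytes on OP9, 115 and 119 on OP9-DLL1, 286 and 285 in cMoPs on OP9, and 337 and 303 on OP9-DLL1. The log2 fold change on OP9 was 3.12 ± 0.27 for Chaf1a and 1.33 ± 0.11 for Slbp (adjusted p = 1.4e-05), and Chaf1b was at 2.98 ± 0.14 (adjusted p = 7.8e-07).

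**Figure D2:**
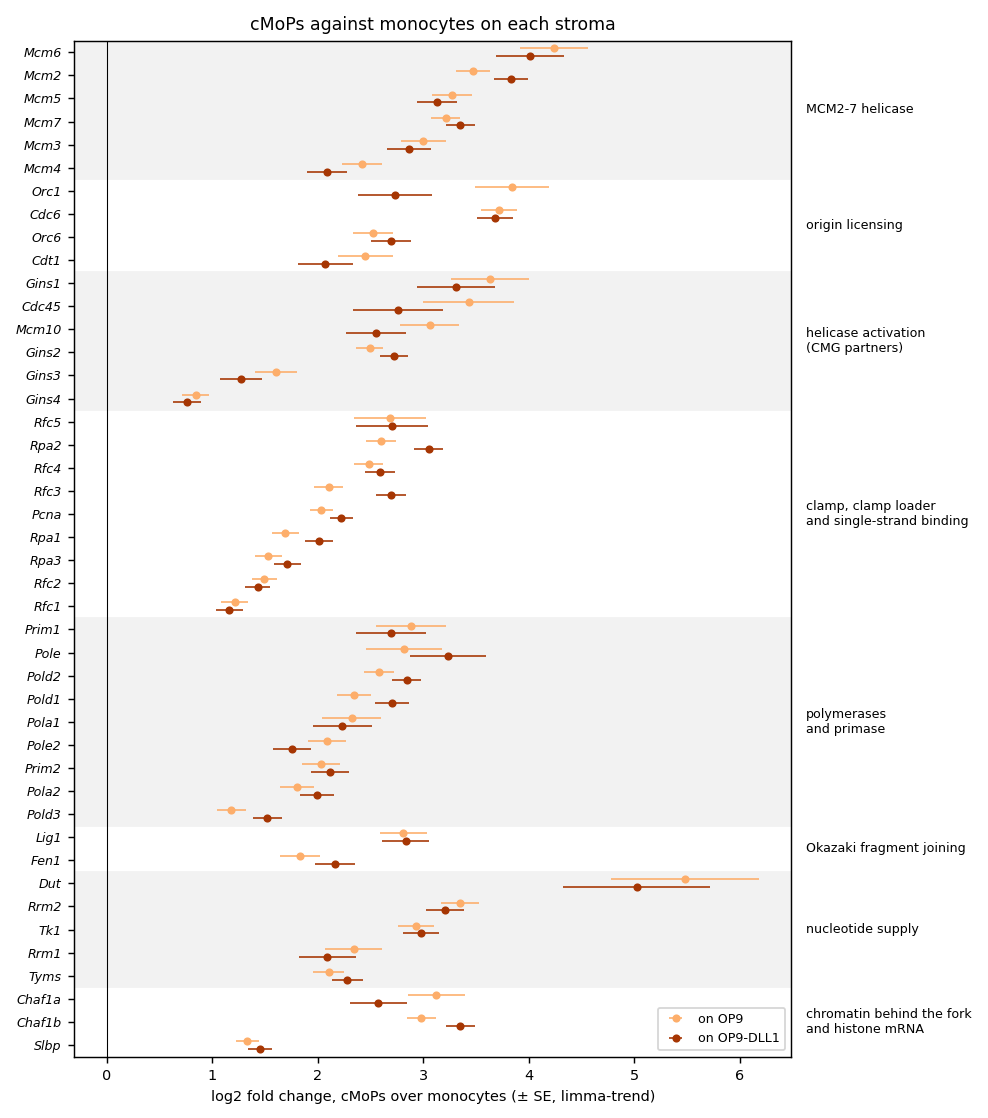
Log2 fold change of cMoPs over monocytes for the 44 genes on OP9 (light) and on OP9-DLL1 (dark), with bars of 1 SE from limma-trend. All 44 lie right of 0 on both stromas, from Gins4 at 0.84 to Dut at 5.48 on OP9, and the MCM2-7, licensing and nucleotide supply genes all lie above 2.

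Exons of 16 members are shared in part with another annotated gene, and for 8 members the share is over 10% of exon bases. It is 84.2% for Fen1, 67.3% for Gins2 and 52.5% for Chaf1a. The library kit does not mark strand, so reads of these 3 genes and of their neighbours may not be fully separated and their levels are uncertain. Members with an E2F-type promoter match had a median log2 fold change of 2.63 on OP9 (14 genes, 1.18 to 4.24), and those without one had 2.58 (23 genes, 1.21 to 5.48). The medians differed by little beside those ranges.

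Other genes of DNA synthesis and division were set beside the members. Of 34 tested genes of replication outside the list, 30 were higher in cMoPs on OP9 and 1 was lower, with a median log2 fold change of 1.68. Tipin, of the fork protection complex, was higher by 2.59 ± 0.19 (adjusted p = 7.6e-06), and Dnmt1, which copies DNA methylation, by 1.82 ± 0.14 (adjusted p = 1e-05). Pold4, a small subunit of polymerase delta, was the 1 lower gene, at -0.97. Of 31 other nucleotide synthesis genes, 24 were higher and 4 lower, with a median of 1.87. Mthfd1, of the folate cycle, was at 7.86 and 7.34 CPM in monocytes on OP9 and 96.5 and 88.4 CPM in cMoPs on OP9, a log2 fold change of 3.6 ± 0.15 (adjusted p = 5.2e-07). Samhd1, which breaks down deoxynucleotides, went the other way, from 724 and 497 CPM in monocytes to 81.6 and 76.1 CPM in cMoPs, a log2 fold change of -2.93 ± 0.18 (adjusted p = 2.8e-06).

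Regulators of S phase entry were mixed. Of 18 genes, 10 were higher and 5 lower in cMoPs on OP9, with a median of 1.05. Ccne2, a cyclin of S phase entry, was higher by 2.68 ± 0.20, and Cdkn1b, the cyclin kinase inhibitor p27, was lower at 3.3 and 4.66 CPM against 24.3 and 26.2 CPM in monocytes, a log2 fold change of -2.68 ± 0.22 (adjusted p = 1.3e-05). E2f1, an activating E2F factor, did not pass on OP9, at -0.50 (adjusted p = 0.069), and was lower in cMoPs on OP9-DLL1, at -0.83 (adjusted p = 0.0079). Of 14 genes of replication stress and damage response, 11 were higher and 2 lower, with a median of 2.1.

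Mitosis genes showed smaller differences between the cell types. Of 20 tested, 10 were higher and 0 lower in cMoPs on OP9, beside 28.8% and 27.7% of all genes. The median log2 fold change was 0.65, beside 2.51 for the replication members. Among the monocyte libraries, all 20 were lowest in replicate 1 on OP9, at a summed 1310 CPM against 2710 CPM in replicate 2. The differences on OP9 therefore depend on that library. Aurkb, a kinase of chromosome segregation, was higher by 1.48 ± 0.29 (adjusted p = 0.002). Mki67, the proliferation antigen Ki-67, was at 72.9 and 166 CPM in monocytes on OP9 and at 134 and 125 CPM in cMoPs on OP9, so the cMoP values lay inside the range of the monocytes (log2 fold change 0.23, adjusted p = 0.54). On OP9-DLL1, 7 mitosis genes were higher and 1 lower, beside 28.2% and 29.2% of all genes, with a median of 0.52. The difference between the 2 lists themselves was not tested.

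**Figure D3:**
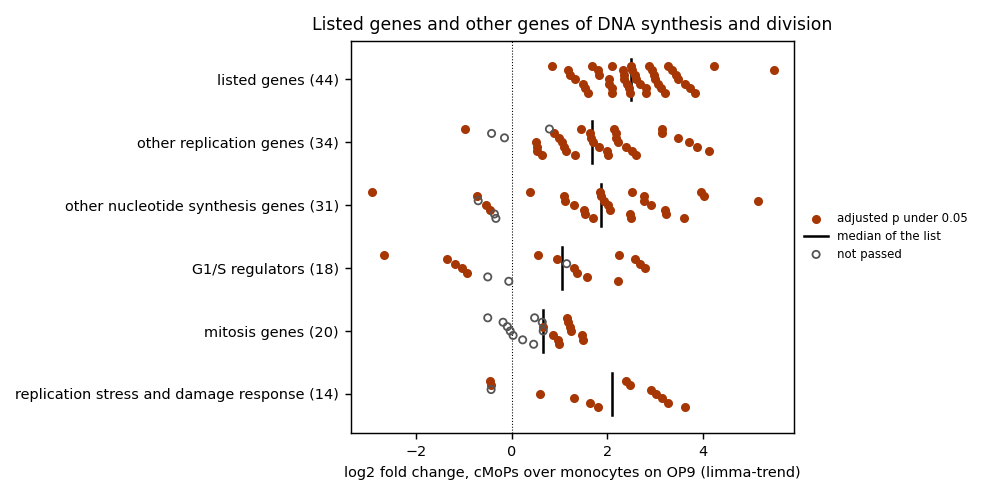
Log2 fold change of cMoPs over monocytes on OP9 for the 44 genes and for 5 further lists, with 1 point per gene, filled where adjusted p is under 0.05 (limma-trend), and a bar at the median of each list. The median is 2.51 for the 44 genes and 0.65 for the 20 mitosis genes, and of these 6 lists only that of the 44 has no gene at or below 0.

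The second comparison asked whether 6 h on DLL1-bearing stroma changed these genes in monocytes. None of the 44 members passed by limma-trend, neither higher (3.36% of all genes were) nor lower (3.03%), and the lowest adjusted p was 0.079; voom on the recovered reads also called 0. At an unadjusted p under 0.05 there were 8 members higher and 1 lower, beside 11.2% and 10.6% of all genes. The median log2 fold change was 0.21, from -0.54 to 1.43, beside 0.01 over all genes, and 30 of 44 members had a positive value, beside 51.5% of all genes. In 10 members both OP9-DLL1 libraries lay above both OP9 libraries (24.2% of all genes) and in 3 both lay below (23.5%).

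The member with the lowest adjusted p in monocytes was Rfc2, a clamp loader subunit, at 112 and 95.5 CPM on OP9 and 128 and 150 CPM on OP9-DLL1. The groups did not overlap, and the log2 fold change was 0.43 ± 0.12 (adjusted p = 0.079 by limma-trend). Pole2, a subunit of polymerase epsilon, was at 6.29 and 8.75 CPM on OP9 and 11.1 and 11.7 CPM on OP9-DLL1, a log2 fold change of 0.62 ± 0.18 (adjusted p = 0.081). The helicase subunits Mcm4 and Mcm5 were at 0.54 ± 0.19 and 0.53 ± 0.19 (adjusted p = 0.13 and 0.14), and Orc1 at 0.98 ± 0.35 (adjusted p = 0.14). The other 3 with an unadjusted p under 0.05 were Gins3, Gins4 and Chaf1a, at 0.53, 0.32 and 0.65. Rfc3, another clamp loader subunit, was the 1 member lower at that level, at 19.1 and 20.8 CPM on OP9 and 17.3 and 14.4 CPM on OP9-DLL1 (-0.34 ± 0.14, adjusted p = 0.19). For 34 of the 44 members the 95% confidence interval of the response lay within 1 log2 unit of 0 on both sides. Pcna was bounded most closely, with an interval from -0.27 to 0.22, and Dut least, with an upper bound of 2.99.

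These values moved with 1 library. Replicate 1 of the monocytes on OP9 was the lowest of the 4 monocyte libraries for 28 of 44 members, beside 31.7% of all genes. The summed level of the members was 1180 CPM in it and 1430 CPM in replicate 2 of the same group, and 1370 and 1530 CPM on OP9-DLL1. Without replicate 2, so that the low library alone stood for OP9, 13 members were higher on OP9-DLL1 by limma-trend (9.93% of all genes were), with a median of 0.33. They were Mcm4, Mcm5, Mcm10, Cdc45, Gins1, Orc1, Cdc6, Rfc5, Prim1, Pole2, Rrm1, Rrm2 and Chaf1a, with adjusted p from 0.00036 for Cdc45 to 0.042 for Rfc5. Without replicate 1 the median was -0.03, 19 of 44 were positive, Rfc2 passed as higher (0.54 ± 0.11, adjusted p = 0.019) and Orc6 as lower (-0.46 ± 0.11, adjusted p = 0.035), beside 4.61% of all genes higher and 3.84% lower. In both cases the lone OP9 library is assumed to vary like the other groups.

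All 20 mitosis genes were also lowest in replicate 1 of the monocytes on OP9 among the monocyte libraries. Their summed level was 1310 CPM there, 2710 CPM in replicate 2, and 2260 and 2400 CPM on OP9-DLL1. Of the 9 measured progenitor markers 8 were lowest in the same library, with sums of 329 and 494 CPM on OP9 and 438 and 463 CPM on OP9-DLL1. Macrophage markers (8 of 8 measured) summed to 394 to 636 CPM on OP9 and 329 to 350 CPM on OP9-DLL1, and stromal markers to 28.2 to 29.4 CPM and 4.94 to 21 CPM. Adgre1 gave most of the macrophage sum and was lower on OP9-DLL1, as were Cd163 and Mrc1, and the other macrophage markers overlapped. Of the stromal markers, Pdgfrb was higher on OP9-DLL1, at 2.9 and 4.24 CPM against 0.0346 and 0.214 CPM on OP9. The other measured stromal markers were lower there. Erythroid and megakaryocyte markers (4 of 10 measured) were at 119 to 206 CPM on OP9 and 17.1 to 25.8 CPM on OP9-DLL1, with the platelet genes Pf4 and Ppbp giving most of the sum. Neutrophil markers (10 of 10) summed to 2050 to 2530 CPM and 1740 to 1750 CPM, and classical monocyte markers to 38900 to 48200 CPM and 30000 to 37800 CPM. Mmp8, the largest part of the neutrophil sum, was at 1130 and 1520 CPM on OP9 and 927 and 534 CPM on OP9-DLL1. Retnlg was also lower on OP9-DLL1, Csf3r and Lcn2 were higher, and the other neutrophil markers overlapped. Lyz2 gave most of the classical monocyte sum. It was lower on OP9-DLL1 with Vcan, Fn1, F13a1 and Ccr2, Csf1r and Ly86 were higher, and the others overlapped. The part of these markers in the monocyte values was not tested.

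**Figure D4:**
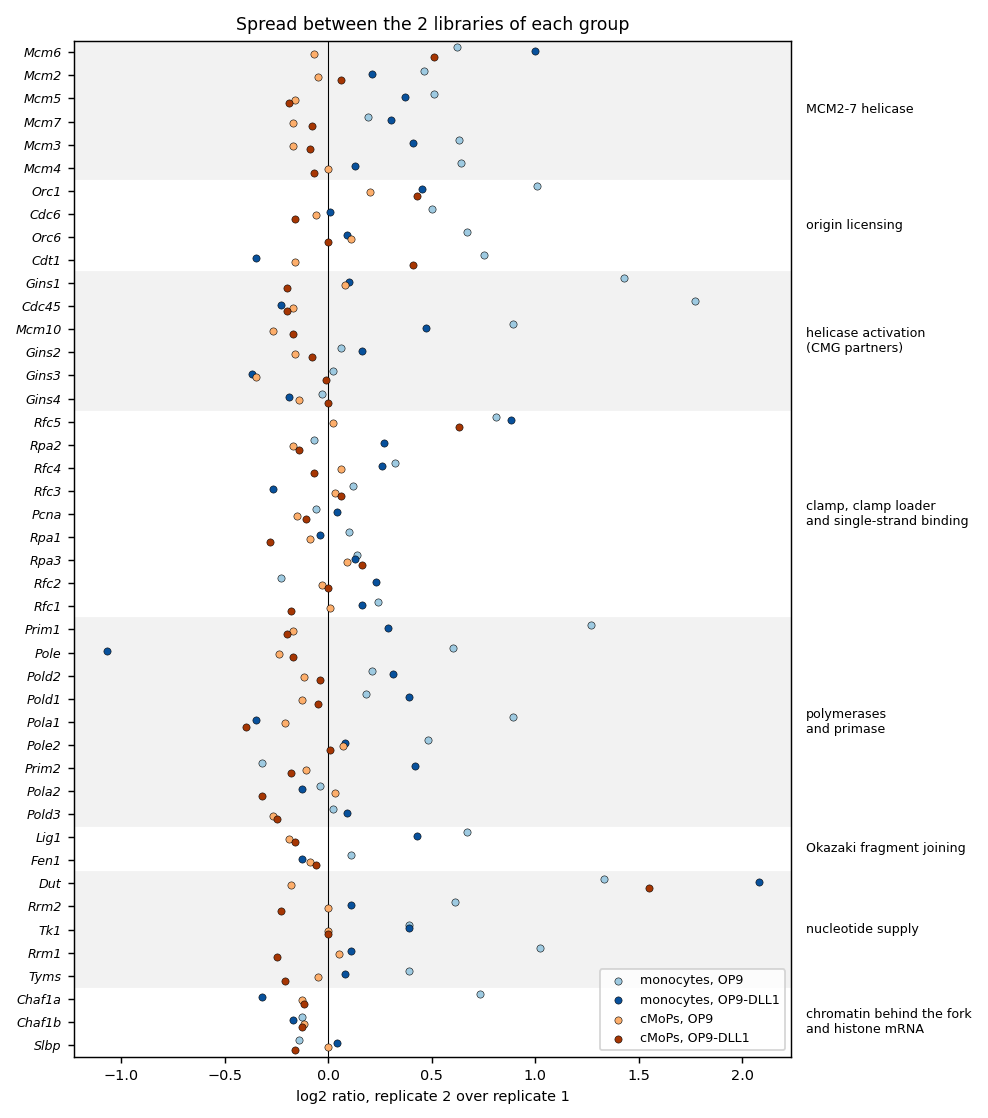
Log2 ratio of replicate 2 over replicate 1 for the 44 genes in each of the 4 groups, in log2 units, with 1 point per gene and group. In monocytes on OP9 (light blue) 36 of 44 points lie right of 0, with Cdc45 at 1.77, and in cMoPs on OP9 (light orange) all lie within 0.35 of 0.

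The spread between replicates of a group was wider for the members than for other genes in monocytes and narrower in cMoPs. The median gap between the replicates was 0.43 log2 units for the members and 0.33 for all genes in monocytes on OP9, and 0.25 and 0.19 on OP9-DLL1. In cMoPs it was 0.11 for the members and 0.17 for all genes on OP9, and 0.16 and 0.2 on OP9-DLL1. The widest gaps in monocytes on OP9 were those of Cdc45 (1.77), Gins1 (1.43), Dut (1.33) and Prim1 (1.27), all with replicate 2 higher. The GINS subunits Gins2 and Gins3 differed by 0.06 and 0.02 between the same libraries.

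The third comparison was that of OP9-DLL1 with OP9 in cMoPs. Again none of the 44 members passed by limma-trend, beside 0.464% of all genes higher and 0.307% lower, and the lowest adjusted p was 0.34; voom on the recovered reads also called 0. At an unadjusted p under 0.05 there were 4 members higher and 0 lower, beside 5.24% and 4.23% of all genes. The values were small and mostly of one sign: 38 of 44 were positive, beside 51.2% of all genes. The median log2 fold change was 0.2, from -0.18 to 0.97, beside 0.01 over all genes. Between replicates, the members' median log2 level had a pooled SD of 0.17. All members rest on the same libraries, so the count of positive values is not a count of independent results. Both OP9-DLL1 libraries lay above both OP9 libraries in 30 of 44 members (25.0% of all genes) and below in 0 (21.7%). The summed level of the members was 7050 and 6710 CPM on OP9 and 8270 and 7860 CPM on OP9-DLL1. Replicate 1 on OP9-DLL1 was the highest of the 4 cMoP libraries for 31 members, beside 28.1% of all genes, and replicate 2 on OP9 the lowest for 26, beside 26.4%.

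Mcm7, a helicase subunit, had the lowest unadjusted p in cMoPs, at 261 and 232 CPM on OP9 and 338 and 321 CPM on OP9-DLL1. The groups did not overlap, and the log2 fold change was 0.42 ± 0.14 (adjusted p = 0.34 by limma-trend). Rfc2 was at 294 and 288 CPM on OP9 and 375 and 374 CPM on OP9-DLL1, with 0.36 ± 0.12 (adjusted p = 0.35), close in size to its value of 0.43 in monocytes. Rpa1 and Rfc5 were at 0.32 ± 0.13 and 0.8 ± 0.34 (adjusted p = 0.46 and 0.51). Licensing genes had the role group median nearest to 0, -0.04, with Cdt1 at 29.5 and 39.2 CPM on OP9-DLL1 around its OP9 values of 40.1 and 35.9 CPM. For 39 of 44 members the 95% confidence interval lay within 1 log2 unit of 0 on both sides, and Pcna had an interval from -0.08 to 0.41. Progenitor markers summed to 14800 to 17700 CPM on OP9 and 18800 to 22100 CPM on OP9-DLL1, without overlap. Elane and Mpo gave most of this sum and were higher on OP9-DLL1, as were Ms4a3 and Prtn3. Myb was lower there, at 20 and 15.2 CPM against 20.9 and 23.2 CPM on OP9, and Kit, Cd34, Cd93 and Ctsg overlapped. The sums of neutrophil markers (658 to 681 and 703 to 743 CPM), dendritic cell markers (4 of 8 measured, 44.7 to 66.7 and 71.4 to 114 CPM, mostly Mgl2) and lymphoid markers (3 of 8 measured, 226 to 270 and 313 to 379 CPM, mostly Nkg7) were also higher on OP9-DLL1 without overlap. Of the neutrophil markers, Csf3r, Lcn2 and Cxcr2 were higher, S100a9 was lower, and the others overlapped. The part of these markers in the result was not tested.

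**Figure D5:**
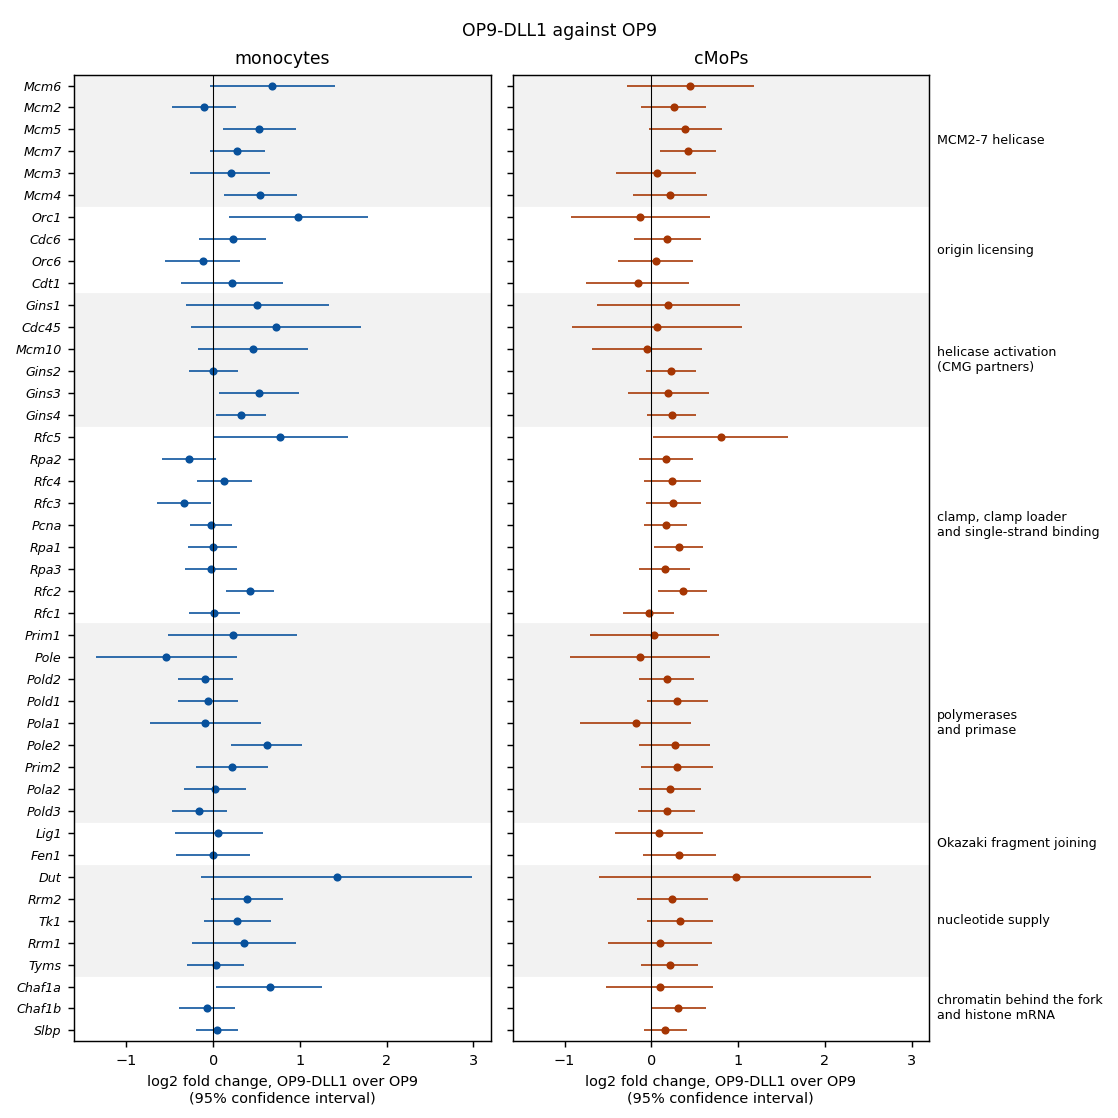
Log2 fold change of OP9-DLL1 over OP9 for the 44 genes in monocytes (left) and in cMoPs (right), with 95% confidence intervals from limma-trend. No member passed after adjustment in either panel, and 30 of 44 points in monocytes and 38 of 44 in cMoPs lie right of 0.

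The responses of the cell types were compared by their interaction. None of the 44 members passed by limma-trend, beside 0.0523% of all genes in either direction, voom called 0 as well, and 2 members (Rfc3 and Rpa2) had an unadjusted p under 0.05, beside 9.79% of all genes. The median difference, cMoPs minus monocytes, was 0.02 on the log2 scale, from -1.11 for Orc1 to 0.59 for Rfc3. For 31 of 44 members its 95% confidence interval lay within 1 log2 unit of 0 on both sides. Without replicate 2 of the monocytes on OP9, 6 members (Mcm4, Orc1, Cdc45, Gins1, Prim1 and Rrm1) passed with a smaller response in cMoPs (3.96% of all genes did) and 0 with a larger one (4.45%), with values from -1.61 for Orc1 to -0.65 for Mcm4.

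Other genes of DNA synthesis were also compared between OP9-DLL1 and OP9. In monocytes 1 of 34 other replication genes passed as higher, beside 3.36% of all genes. It was Dna2, a nuclease and helicase of Okazaki fragment processing, at 30.2 and 28 CPM on OP9 and 45.3 and 51.8 CPM on OP9-DLL1 (0.74 ± 0.15, adjusted p = 0.021 by limma-trend). Of 31 other nucleotide synthesis genes, 3 were lower and 0 higher in monocytes, beside 3.03% and 3.36% of all genes. At an unadjusted p under 0.05 it was 13 lower and 2 higher, beside 10.6% and 11.2% of all genes. Atic, which catalyses the closing steps of purine synthesis, was at 130 and 148 CPM on OP9 and 62.9 and 68.6 CPM on OP9-DLL1 (-1.08 ± 0.12, adjusted p = 0.002), and Nme1 and Adsl were at -0.72 and -0.49 (adjusted p = 0.018 and 0.025). The E2F family member E2f3 was lower in monocytes, at 2.71 and 4.06 CPM on OP9 and 1.04 and 1.62 CPM on OP9-DLL1 (-1.36 ± 0.30, adjusted p = 0.032). No mitosis or replication stress gene passed in monocytes by limma-trend, with 0 and 1 at an unadjusted p under 0.05. In cMoPs 0 genes of these 5 lists passed by limma-trend, with at most 2 of a list at an unadjusted p under 0.05, and Atic was at -0.48 (adjusted p = 0.17) and Cdkn1b at 0.75 (adjusted p = 0.24).

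The authors' deposited table of their own comparisons gave the same counts for the members. In the authors' deposited table all 44 are higher in cMoPs on either stroma at an adjusted p of at most 0.016 on OP9 and 0.00015 on OP9-DLL1. The lowest adjusted p of a member for OP9-DLL1 against OP9 in the authors' deposited table is 0.14 in monocytes and 0.062 in cMoPs.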

How the data were processed

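RNA of 8 libraries was measured on a NovaSeq instrument from SMARTer Ultra Low libraries, per the labels' protocols. Per the submitters' processing notes, reads were handled with featureCounts 2.0.3, STAR 2.7.9a, Salmon 1.5.2, limma, edgeR, Subread and bcl2fastq, on mm10. No label records settings or the fitted model. The deposited table holds 13430 entries for 13388 genes (42 repeats dropped) as log2 CPM normalized by the authors. The authors' deposited table also gives their log2 fold changes and p-values.

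The log2 values carry 0.5 reads added to each count, and whole reads were recovered for 100.0% of values (tolerance 0.001). They served for depth and alternatives, and counting error is small at these depths. CPM is the deposited value on a linear scale, as mean ± SD where given. The test was limma-trend (limma 3.58.1, R 4.3.3) fitted to all 8 libraries with a mean for each of the 4 groups, on the 13374 genes that reached 1 CPM in 2 libraries or more (14 did not), and Benjamini-Hochberg adjustment over all genes. Tests were two-sided, a gene passes at an adjusted p under 0.05, and fold changes are ± SE. The fit was checked on simulated data with 1 fixed spread and changes of 1 or 2 log2 units in well-covered genes. That check does not cover smaller responses or a wider spread. Nothing in the labels ties replicates to separate mice or dishes: p-values then reflect only the spread between these libraries, which may be technical. Over all genes, the gaps between replicates were nearly uncorrelated between groups (correlations of 0.023 to 0.089), so the numbers were not used to pair libraries. Some marker genes did deviate together: Chil3 and Lyz2 were higher in replicate 1 of every group, and Ltf and Camp in replicate 2. The labels do not state whether same-numbered libraries share an origin.

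The members and lists were chosen with earlier results of these data known. Values in every library are given for Pcna, Mcm2, Cdt1, Cdc6, Rrm2, Tyms, Slbp and the highest and lowest fold change of each role group on OP9; further members are named after their values were seen, and other lists are shown by their lowest adjusted p. Gene positions and exon lengths are from GENCODE M21 on GRCm38, which mm10 denotes. Of the marker sums not given with the results, in monocytes on OP9 and OP9-DLL1 dendritic cell markers gave 5.89 to 17.6 and 11.8 to 35.7 CPM and lymphoid markers 13.1 to 13.5 and 14.2 to 19.6 CPM. In cMoPs on OP9 and OP9-DLL1 erythroid and megakaryocyte markers gave 90.3 to 98.1 and 85.8 to 90.9 CPM and macrophage markers 36.7 to 42.7 and 38.5 to 45.8 CPM. Alternatives tried were no variance trend, voom with and without sample weights, other filters, log2(CPM + 1), median centring, only the libraries compared, a replicate block, and each library left out.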

Additional observations from a re-analysis of the deposited data

Results flagged for a closer look

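The clamp loader subunit Rfc3 and the single-strand binding subunit Rpa2 were flagged for opposite directions in the cell types. Both OP9-DLL1 libraries lay below both OP9 libraries in monocytes and above both in cMoPs. Of all genes, 23.5% lay below in this way in monocytes and 25.0% above in cMoPs. The share of all genes with both patterns at once was not counted, so these members cannot be called unusual. The difference of the responses, cMoPs minus monocytes, was 0.59 ± 0.20 on the log2 scale for Rfc3 (adjusted p = 0.38, limma-trend) and 0.45 ± 0.19 for Rpa2 (adjusted p = 0.49), so neither passed. Rpa2 was at 27.3 and 26.1 CPM on OP9 and 20.1 and 24.2 CPM on OP9-DLL1 in monocytes, and at 172 and 153 CPM and 192 and 174 CPM in cMoPs.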

How the results depend on the processing

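The 44 of 44 members higher in cMoPs on both stromas, and the 0 members lower, held under every alternative run. No member value called in the reported fit changed sign, but the members' median for OP9-DLL1 in monocytes (0.21 reported) and for the difference of responses (0.02 reported) did. Single members also changed sign for OP9-DLL1 in monocytes. Over the alternatives Cdc45 ran from -0.15 to 1.61 and Orc6 from -0.46 to 0.22. Leaving out 1 library at a time, the members' median lay between 2.26 and 2.8 on OP9 and between 2.5 and 2.71 on OP9-DLL1, with 5500 to 7807 and 5956 to 8598 of all genes called (7550 and 7671 in the reported fit). For OP9-DLL1 in monocytes, 0 to 13 members were higher and 0 to 1 lower, the median ran from -0.03 (without replicate 1 on OP9, 19 of 44 positive) to 0.33, and 164 to 2488 genes were called in all (855 in the reported fit), the lowest without replicate 2 on OP9-DLL1 and the highest without replicate 2 on OP9. In cMoPs 0 members passed, the median ran from 0.14 to 0.24, and 31 to 308 genes were called in all (103 in the reported fit), the lowest without replicate 2 of the cMoPs on OP9 and the highest without replicate 1 of the monocytes on OP9. For the difference of responses, 0 members were higher and 0 to 6 lower, the median ran from -0.16 to 0.24, and 0 to 1124 genes were called in all (7 in the reported fit), the lowest without replicate 1 of the monocytes on OP9-DLL1 and the highest without replicate 2 of those on OP9. Over all genes, no variance trend gave 248 calls in monocytes, 37 in cMoPs and 1 for the difference. Voom on recovered reads gave 64 in cMoPs, and voom with sample weights 536 in monocytes and 268 in cMoPs. Fitting only the libraries compared gave 306 in monocytes and 315 in cMoPs, where 2 members were then higher, Mcm7 (adjusted p = 0.034) and Rfc2 (adjusted p = 0.032). Using log2(CPM + 1) gave 24 calls for the difference. The cause of these shifts was not tested. With the replicate number as a block, 156 genes were called in cMoPs and 11 for the difference, with 44, 44, 0, 0 and 0 members called in the 5 contrasts. With 2 libraries a group, 10 members in monocytes and 5 in cMoPs had intervals of the response that reach beyond 1 log2 unit.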
